A study of Mus musculus with 20 samples.

Results

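Cathepsins are the main protein-digesting enzymes of the lysosome, and 10 of their genes were followed here across mouse kidneys by RNA sequencing. The genes were taken by symbol as Ctsa, Ctsb, Ctsc, Ctsd, Ctse, Ctsh, Ctsk, Ctsl, Ctss and Ctsz, which are 10 of the 47069 genes in the count table. All 10 were among the 17622 genes that passed the filter on low counts and were tested. Kidney RNA came from 20 mice of the strain 129SJ x C57Bl/6J at 15 weeks of age, in 4 groups. The WT group held 5 wild-type mice that received no treatment. The other groups were Col4a3-/- mice, which lack a chain of type IV collagen of the glomerular basement membrane and serve as a model of Alport syndrome. The Veh group (n = 6) was given weekly subcutaneous PBS, and the Anti-miR-21 group (n = 6) weekly subcutaneous Lademirsen, an oligonucleotide against microRNA-21, at 50 mg/kg in PBS. The ACEi group (n = 3) drank ramipril, an inhibitor of angiotensin-converting enzyme, at 11 mg/L. The paper states that ACEi mice were also injected weekly with PBS, and that the treated mice killed at 15 weeks were males. Treatments began at 5 weeks of age. Veh and WT mice therefore differed in genotype and also in the PBS injections, and all treated groups carried the deletion. No group received both drugs.

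Cathepsins are made as inactive precursors, carried to the lysosome on mannose 6-phosphate receptors, and cut into active enzymes in its acid interior. Most are cysteine proteases, held in check by cystatins, while Ctsd and Ctse are aspartic proteases and Ctsa is a serine carboxypeptidase. In the kidney they are abundant in the proximal tubule, which digests filtered protein, and in macrophages, where some members cut antigens and the invariant chain for display on MHC class II. Secreted forms can also cut collagen and elastin.

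Libraries held 28474301 to 29479629 counts over the genes of the table. Col4a3 itself lay at 194 to 238 CPM (counts scaled to a common library size) in WT mice and at 27.9 to 74.9 CPM in the 15 Col4a3-/- mice, so every library matched its genotype label. CPM values and fold changes below were scaled with TMM, which assumes that most genes do not differ. The scaling factors ran from 0.771 to 0.850 in WT, 1.12 to 1.26 in Veh, 0.881 to 1.04 in Anti-miR-21 and 0.976 to 1.05 in ACEi. The summed CPM of 6 proximal tubule markers ran from 11726 to 15086 in WT, 1319.9 to 3671 in Veh, 6431 to 10708 in Anti-miR-21 and 6707 to 8783 in ACEi. All 6 were called lower in Veh than in WT, as were 34% of all genes tested. Over the 17622 tested genes the median log2 difference of Veh from WT was 0.07 under TMM and 0.65 when the libraries were scaled by their totals alone. For Anti-miR-21 against Veh it was -0.04 and -0.38, and for ACEi against Veh -0.05 and -0.32.

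In the kidneys of Veh mice 8 of the 10 cathepsins were higher than in WT, led by Ctss (27.5-fold), Ctsk (9.74-fold), Ctsc (7.92-fold) and Ctse (5.12-fold). Ctsd, Ctsl, Ctsz and Ctsb rose by less than 2-fold. Ctsh was lower and Ctsa did not pass the test. Calls are at an adjusted p under 0.05 from edgeR's quasi-likelihood test with Benjamini-Hochberg adjustment over all genes tested. These 9 called members stand against a background in which 73% of all genes tested were called, 39% higher and 34% lower. The CPM ranges of the 2 groups did not overlap for the same 9 members, as for 54.9% of all genes tested. With library totals in place of TMM the split was 9 higher and 0 lower, because Ctsa moved to a log2 fold change of 0.51 and Ctsh to 0.02. Of all genes called with that scaling, 81.2% were higher in Veh.

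Several of these transcripts were lower in treated mice than in Veh. Against Veh, 7 cathepsins were lower and 2 higher under Anti-miR-21, where 59.2% of all genes were called (28.8% higher and 30.5% lower), and the ranges of 5 members did not overlap, against 36.4% of all genes. Under ACEi 3 were lower and 2 higher, where 40.1% of all genes were called (21% higher and 19.1% lower), and again 5 members did not overlap, against 38.6% of all genes. Both comparisons use the same 6 Veh mice, so their values are set side by side and not counted as independent. With library totals the splits became 0 higher and 9 lower for Anti-miR-21, and 0 higher and 7 lower for ACEi.

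**Figure D1:**
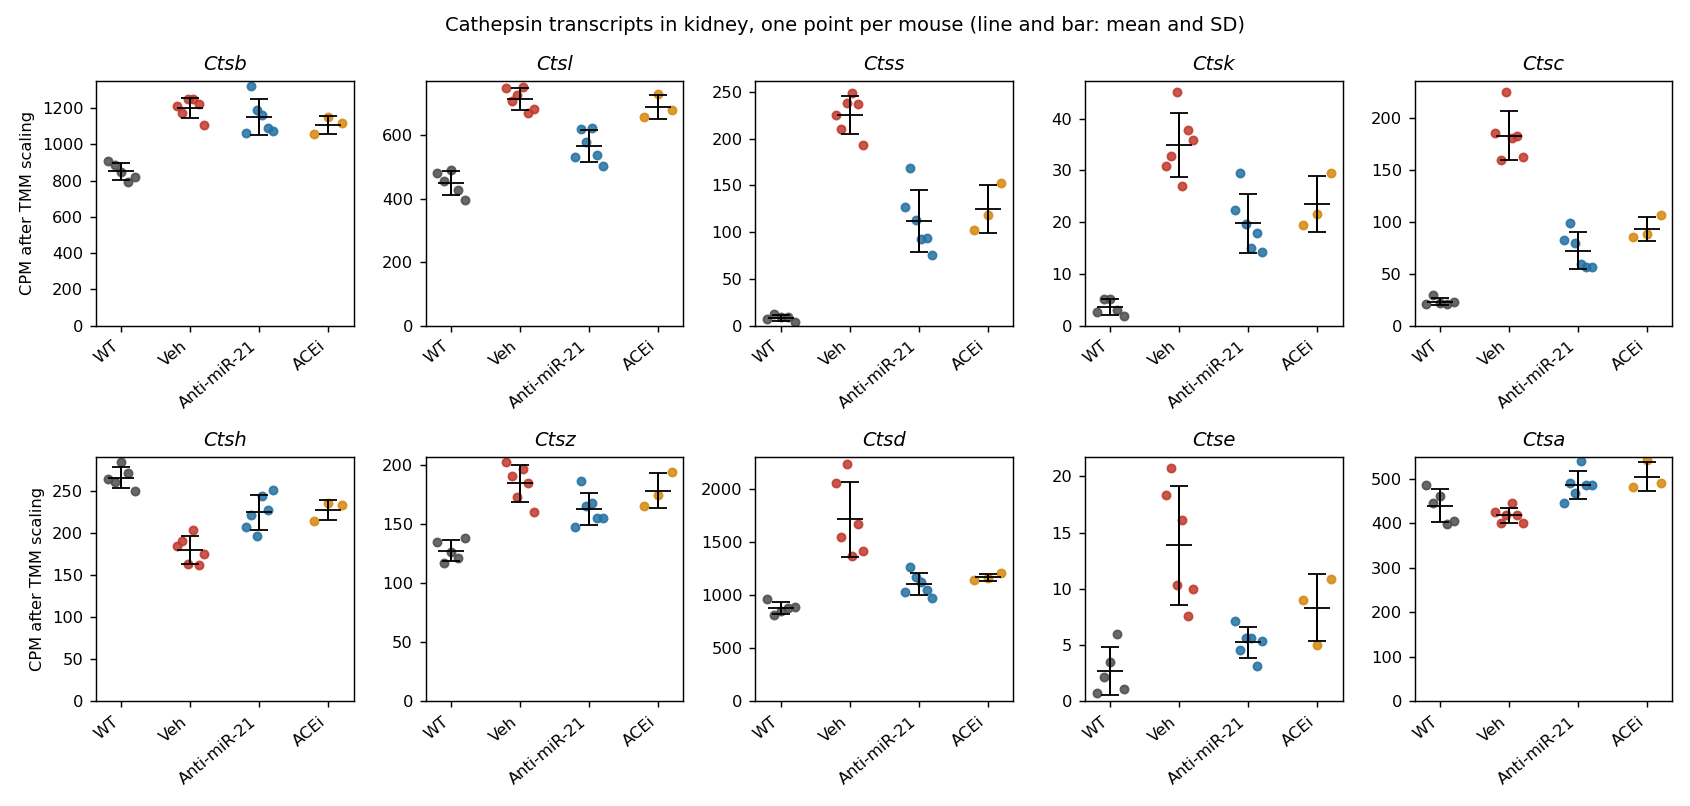
CPM after TMM scaling (y axis, from 0, own scale per gene) of the 10 cathepsins in each of the 20 mice, by group, with the mean and SD as line and bar. Ctss lies between 3.90 and 11.9 CPM in WT and between 193 and 249.4 in Veh, with both treated groups between these ranges, while Ctsh shows the opposite order under this scaling.

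**Figure D2:**
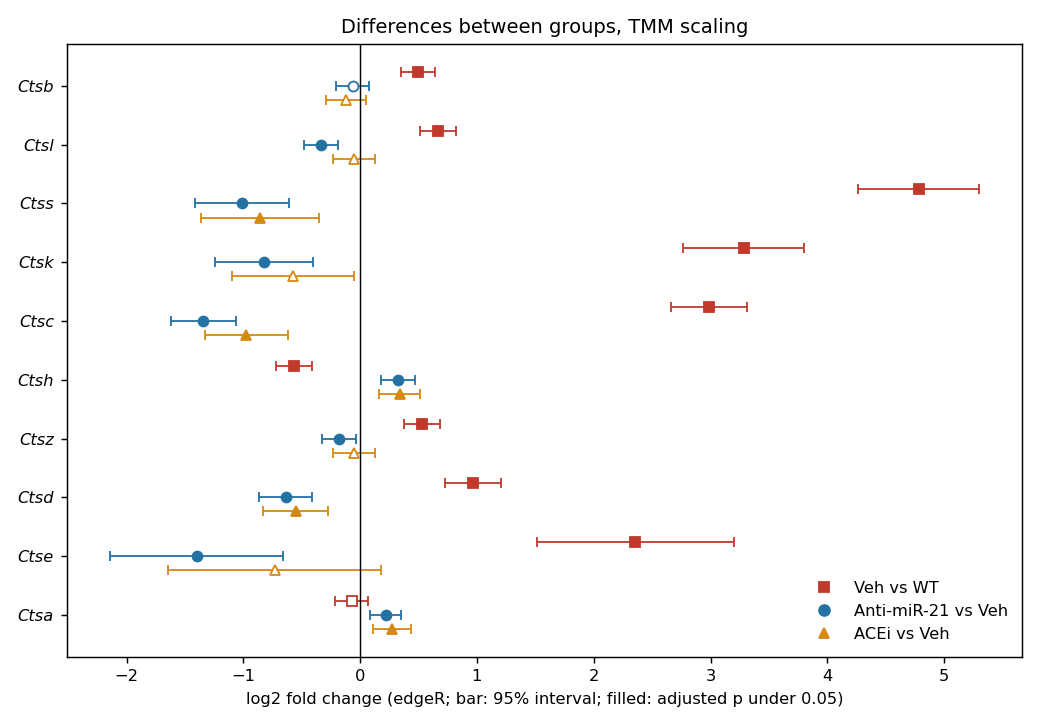
Log2 fold changes with 95% intervals (x axis) of the 10 cathepsins (y axis) for Veh vs WT, for ACEi vs Veh and for Anti-miR-21 vs Veh, with filled symbols for adjusted p under 0.05. Ctss has the largest value of the 10 in Veh vs WT (4.78) and Ctsc the lowest under ACEi (-0.97).

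Among the cysteine endopeptidases, Ctss showed the widest contrast. Ctss (ENSMUSG00000038642, chr3:95526786-95556403, plus strand, GRCm38) encodes cathepsin S, which cuts the invariant chain in antigen-presenting cells and stays active outside the acid lysosome. In the 5 WT mice it was at 3.90, 7.04, 8.87, 9.20 and 11.9 CPM, and in Veh at a lowest of 193, a median of 231 and a highest of 249.4 CPM. Under Anti-miR-21 the lowest was 75.7, the median 104 and the highest 169 CPM, and the 3 ACEi mice had 102.2, 118 and 153 CPM. Every Veh mouse lay above every treated mouse, and every treated mouse lay above every WT mouse. The log2 fold changes of Ctss were 4.78 ± 0.25 (SE, adjusted p = 3.27e-12) for Veh against WT, -1.01 ± 0.19 (adjusted p = 0.000157) for Anti-miR-21 against Veh and -0.86 ± 0.24 (adjusted p = 0.00845) for ACEi against Veh. Without the ACEi mouse A11 the last of these was no longer called (log2 fold change -0.73, adjusted p = 0.0580).

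Ctsk (ENSMUSG00000028111, chr3:95499256-95509362, plus strand), the collagen-cutting cathepsin K known best from osteoclasts, is the upstream neighbour of Ctss, with 17423 bases between them. It was rare in WT kidney, at 1.85, 2.63, 3.11, 5.11 and 5.21 CPM, and reached a lowest of 27.1, a median of 34.4 and a highest of 45.1 CPM in Veh. Anti-miR-21 mice ran from 14.2 to 29.5 CPM with a median of 18.8, and ACEi mice had 19.5, 21.5 and 29.6 CPM. WT and Veh did not overlap, while the highest mouse of each treated group (A8 and A23) lay inside the Veh range. The log2 fold change was 3.28 ± 0.25 in Veh against WT (adjusted p = 3.34e-10) and -0.82 ± 0.20 in Anti-miR-21 against Veh (adjusted p = 0.00159). Under ACEi it was -0.57 ± 0.25 with an adjusted p of 0.0751, which did not pass, though it passed with library totals (-0.85, adjusted p = 0.0175).

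Ctsl (ENSMUSG00000021477, chr13:64359337-64370890, minus strand), an abundant endopeptidase of most lysosomes, separated the treated groups more than any other member by the size of its p. WT mice had 395, 426, 456, 479.7 and 489 CPM, and Veh mice a lowest of 668, a median of 716 and a highest of 752 CPM. Under Anti-miR-21 the lowest was 503, the median 558 and the highest 621 CPM, whereas the 3 ACEi mice had 657, 679 and 729.7 CPM. The Anti-miR-21 range thus lay between those of WT and Veh without touching either, and below the ACEi range, while ACEi overlapped Veh. Log2 fold changes of Ctsl were 0.67 ± 0.07 in Veh against WT (adjusted p = 8.14e-08) and -0.34 ± 0.07 in Anti-miR-21 against Veh (adjusted p = 0.000368). ACEi against Veh gave -0.05, with a 95% interval from -0.23 to 0.13 (adjusted p = 0.666). The direct comparison of Anti-miR-21 with ACEi gave -0.29 ± 0.09 for Ctsl, with a raw p of 0.00309 and an adjusted p of 0.127, and DESeq2 called it (-0.29, adjusted p = 0.0214).

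Ctsb (ENSMUSG00000021939, chr14:63122462-63145923, plus strand), an endopeptidase that can also trim dipeptides, was at 793 to 908 CPM in WT and 1106 to 1249 CPM in Veh. Its log2 fold change in Veh was 0.50 ± 0.07 (adjusted p = 2.38e-06), with no overlap between the groups. It was the one member called in Veh against WT that neither treatment moved past the test. Anti-miR-21 mice (1060.1 to 1322 CPM) gave -0.06, with a 95% interval from -0.20 to 0.08, and ACEi mice (1055 to 1148 CPM) gave -0.12, with an interval from -0.29 to 0.05. Of the exon bases of Ctsb 12.8% are shared with Fdft1 on the other strand. The means of Fdft1 in the 4 groups ran from 22.8 to 35.3 CPM, and its part in the Ctsb values was not tested. With library totals Ctsb was called lower under both treatments (-0.40 and -0.39).

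The exopeptidases Ctsc, Ctsh and Ctsz did not move together. Ctsc (ENSMUSG00000030560, chr7:88278085-88310888, plus strand) encodes dipeptidyl peptidase I, which activates the serine proteases of granulocyte, mast cell and lymphocyte granules. WT mice had 20.5, 21.2, 21.9, 22.6 and 29.2 CPM, and Veh mice a lowest of 159, a median of 182 and a highest of 225 CPM. Anti-miR-21 mice had a lowest of 56.1, a median of 69.7 and a highest of 98.9 CPM, and ACEi mice 85.1, 88.0 and 106 CPM. No treated mouse reached the Veh or the WT range. Ctsc changed by 2.99 ± 0.15 on the log2 scale in Veh against WT (adjusted p = 3.25e-12), by -1.34 ± 0.13 in Anti-miR-21 against Veh (adjusted p = 1.20e-07) and by -0.97 ± 0.17 in ACEi against Veh (adjusted p = 0.000172).

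Of the granule serine proteases that Ctsc matures, 4 of the 6 listed were tested. Gzmb, Prtn3 and Cma1 rose in Veh against WT (log2 fold changes 4.64, 4.48 and 2.96), and Gzma was not called at 1.18, beside 39% of all genes called higher. Prtn3 and Cma1 were lower than in Veh under both treatments, as were 30.5% of all genes under Anti-miR-21 and 19.1% under ACEi. The summed CPM of 5 neutrophil markers stayed between 0.253 and 2.43 in all 20 mice, and neither of the 2 markers tested was called in Veh against WT.

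Ctsh (ENSMUSG00000032359, chr9:90054152-90076089, plus strand), an aminopeptidase, ran against the others under TMM. It was at 250.03, 261, 264, 271 and 285 CPM in WT and at a lowest of 162, a median of 179.7 and a highest of 203.8 CPM in Veh. Anti-miR-21 mice had a lowest of 197, a median of 225 and a highest of 252 CPM, and ACEi mice 214.3, 233 and 236 CPM. WT and Veh did not overlap, the ACEi mice lay between them, and the Anti-miR-21 mice overlapped both. The log2 fold changes were -0.56 ± 0.07 (adjusted p = 6.39e-07) in Veh against WT, 0.32 ± 0.07 (adjusted p = 0.000529) in Anti-miR-21 against Veh and 0.34 ± 0.08 (adjusted p = 0.00334) in ACEi against Veh. With library totals these became 0.02, -0.02 and 0.07, none of them called, so the direction in 2 of the 3 comparisons depended on the scaling.

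Ctsz (ENSMUSG00000016256, chr2:174427493-174439039, minus strand), a carboxypeptidase, was at 117 to 139 CPM in WT and 161 to 203.1 CPM in Veh (log2 fold change 0.53 ± 0.07, adjusted p = 1.81e-06). Anti-miR-21 mice ran from 148 to 186 CPM, and ACEi mice from 166 to 195 CPM. Both treated ranges overlapped that of Veh. The Anti-miR-21 difference of -0.18 ± 0.07 passed narrowly (adjusted p = 0.0320) and was lost when any of the 7 mice A1, A4, A16, A19, A2, A15 or A22 was left out (-0.17 to -0.13). It was also lost with no filter on low counts (adjusted p = 0.0702) and with only the groups compared in the fit (adjusted p = 0.0543), which left 8 members called. The ACEi difference was -0.05, with an interval from -0.23 to 0.13.

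Ctsd (ENSMUSG00000007891, chr7:142375911-142388038, minus strand), the major aspartic protease of lysosomes, was the most abundant cathepsin in every group by FPKM. In WT it was at 816, 850.2, 874, 886 and 959 CPM, and in Veh at a lowest of 1370.2, a median of 1602 and a highest of 2228 CPM. Anti-miR-21 mice had a lowest of 973, a median of 1083 and a highest of 1259 CPM, and ACEi mice 1139, 1158 and 1202 CPM. The treated ranges fell between those of WT and Veh and touched neither. Ctsd changed by 0.96 ± 0.12 in Veh against WT (adjusted p = 2.18e-07), by -0.64 ± 0.11 in Anti-miR-21 against Veh (adjusted p = 4.32e-05) and by -0.55 ± 0.14 in ACEi against Veh (adjusted p = 0.00301), all on the log2 scale. The 2 Veh libraries of flow cell B had 1370.2 and 1410.1 CPM, below the 4 of flow cell A (1542 to 2228 CPM). With flow cell as a term the first 2 values were 0.95 and -0.65, and in flow cell A alone 1.101 and -0.78. In WT the 3 libraries of flow cell A lay above the 2 of flow cell B for Ctsa, Ctsb and Ctsl. For ACEi against Veh the term gave -0.51, and flow cell A held a single ACEi mouse.

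Ctse (ENSMUSG00000004552, chr1:131638306-131675505, plus strand), an aspartic protease known from stomach and immune cells, was the rarest member by CPM, with as few as 17 counts in a library. WT mice had 0.757, 1.09, 2.13, 3.46 and 6.01 CPM, and Veh mice a lowest of 7.61, a median of 13.2 and a highest of 20.7 CPM. Anti-miR-21 mice ran from 3.10 to 7.17 CPM and ACEi mice had 5.05, 9.05 and 10.9 CPM. All Veh mice lay above all WT and all Anti-miR-21 mice, and the ACEi mice overlapped Veh. Ctse changed by 2.36 ± 0.40 in Veh against WT (adjusted p = 2.47e-05), by -1.40 ± 0.36 under Anti-miR-21 (adjusted p = 0.00208) and by -0.73 ± 0.44 under ACEi (adjusted p = 0.190, not called). The summed CPM of 5 urothelium markers was high in some of the mice with high Ctse, and not in others. In Veh the mice A1 and A4 had urothelium sums of 191 and 117 CPM, against 10.7 to 23.05 in the other 4, and Ctse was highest in the same mice. In WT the mouse A17 had the highest of both (35.1 CPM of markers and 6.01 CPM of Ctse). In each treated group 1 mouse stood at opposite ends. The ACEi mouse A23 had the lowest marker sum (1.70 CPM) and the highest Ctse (10.9 CPM). The Anti-miR-21 mouse A15 had the highest sum (8.41 CPM) and the lowest Ctse (3.10 CPM). The other ends of the sums were not reversed. The ACEi mouse A11 had the highest sum (6.72 CPM) with 9.05 CPM of Ctse, and the Anti-miR-21 mouse A10 the lowest (1.69 CPM) with 5.63 CPM. The mean sums of the treated groups (4.57 and 3.80 CPM) lay below that of WT (12.4 CPM), while their mean Ctse (5.24 and 8.33 CPM) lay above it (2.69 CPM). Across the groups the sums ran from 2.23 to 35.1 CPM in WT, 10.7 to 191 in Veh, 1.69 to 8.41 in Anti-miR-21 and 1.70 to 6.72 in ACEi, and the part of urothelium in the Ctse values was not tested.

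Ctsa (ENSMUSG00000017760, chr2:164832873-164841032, plus strand) encodes protective protein, a carboxypeptidase that also holds the lysosomal enzymes Glb1 and Neu1 in a complex. WT mice had 399 to 486 CPM and Veh mice 399.5 to 445 CPM, and the log2 fold change of -0.07 had a 95% interval from -0.21 to 0.07. Anti-miR-21 mice (444 to 540.2 CPM) were 0.22 ± 0.06 above Veh (adjusted p = 0.00602), and ACEi mice (481, 491 and 542 CPM) were 0.27 ± 0.08 above Veh (adjusted p = 0.00831). The ACEi group did not overlap Veh, but the call was lost without mouse A13 (0.22, adjusted p = 0.0640). With library totals the values were 0.51 for Veh against WT, -0.12 for Anti-miR-21 and, for ACEi, within 0.01 of 0. Of the exon bases of Ctsa 10.5% are shared with Pltp on the other strand, whose mean was 10.4 CPM in WT and 75.8 CPM in Veh. The deposited FPKM entries of Ctsa, Ctsb and Ctsz are marked by the authors' annotation as confounded with another gene.

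**Figure D3:**
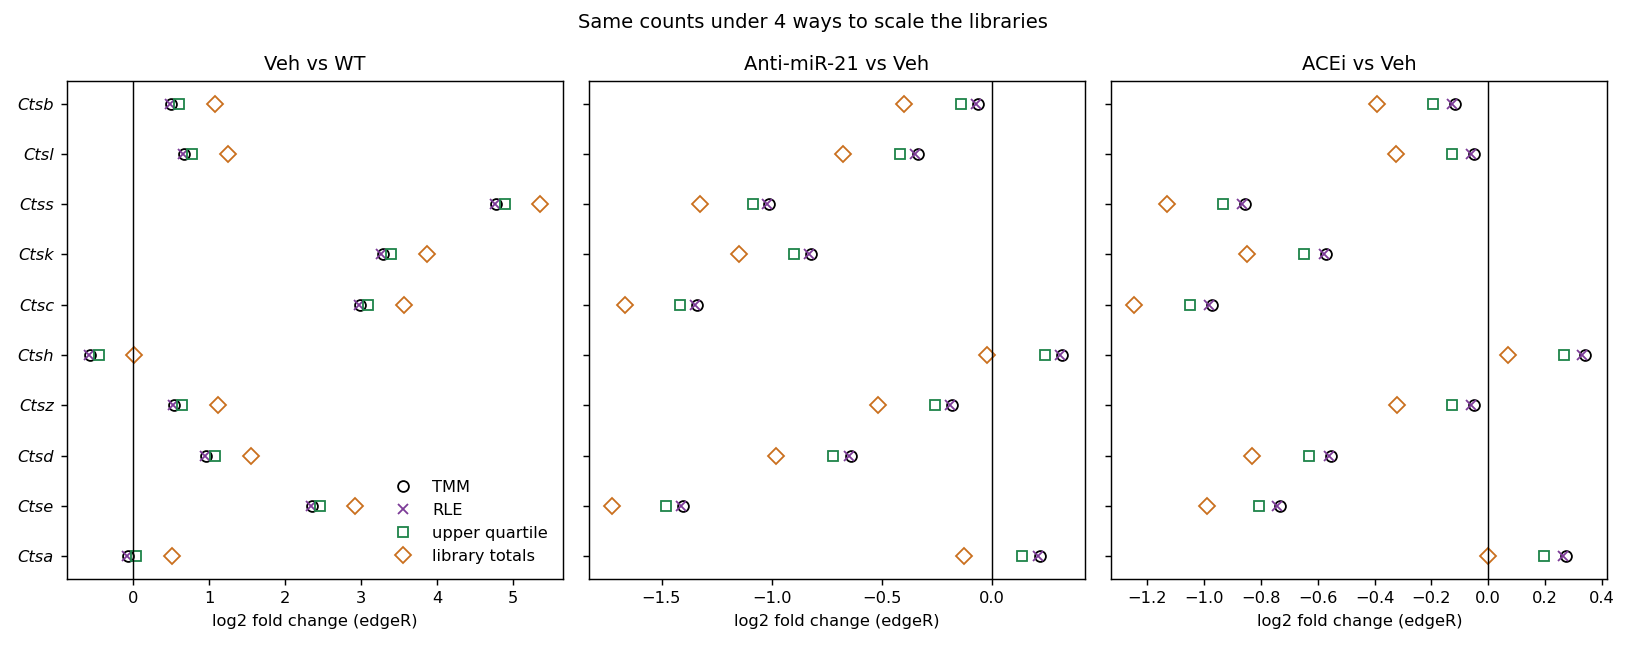
Log2 fold changes (x axis) of the 10 cathepsins (y axis) in Veh vs WT, in ACEi vs Veh and in Anti-miR-21 vs Veh from the same counts under TMM, RLE, upper quartile and library total scaling. Library totals shift every member upwards in Veh vs WT, where Ctsh moves from -0.56 to 0.02 and Ctsa from -0.07 to 0.51.

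The direct comparison asked whether the 2 treatments differed. Of the 10 cathepsins 0 were called by edgeR's quasi-likelihood test in Anti-miR-21 against ACEi, where 0.584% of all genes were called, and DESeq2 called 1, Ctsl. At an unadjusted p under 0.05 the edgeR test held Ctsl and Ctsc, and Ctsc had a log2 fold change of -0.37 with a 95% interval from -0.70 to -0.03 (adjusted p = 0.297). Ctsl was also the one member whose CPM ranges did not overlap in this comparison, against 8.99% of all genes tested. For the other 8 members the intervals of the difference included 0, and the widest, of Ctse, ran from -1.55 to 0.22.

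Measured against WT, most cathepsins were still higher in treated mice. Under Anti-miR-21 7 were higher and 1, Ctsh, lower, where 43.7% of all genes were called (23.9% higher and 19.8% lower), and 7 did not overlap WT, against 23.8% of all genes. Under ACEi 9 were higher and 1, Ctsh, lower, where 47.7% were called (25.2% higher and 22.5% lower), and 8 did not overlap WT, against 46.1% of all genes. With library totals Ctsh was not called in either, at -0.01 and 0.09. The Ctsh call under ACEi, with an adjusted p of 0.0426, held in 4 of 18 alternatives. It was lost with flow cell as a term (-0.22, adjusted p = 0.0593, leaving 9 higher and 0 lower), with upper quartile scaling, with no filter, with at least 10 counts asked of every mouse, with the FPKM models, and without any 1 of the mice A3, A6, A14, A17, A11, A13 and A23 (-0.24 to -0.17). The Ctsa call under ACEi, with an adjusted p of 0.0455, was lost with RLE scaling (0.18) and without A6, A17, A18, A13 or A23 (0.15 to 0.23). Ctss stayed 13.7-fold above WT under Anti-miR-21 and 15.2-fold under ACEi, Ctsk 5.51-fold and 6.56-fold, and Ctsc 3.13-fold and 4.03-fold. Ctsd was 1.25-fold and 1.33-fold above WT, with adjusted p of 0.0254 and 0.0163. The Ctsd call under Anti-miR-21 was lost without A6, A14 or A8 (log2 fold changes 0.28 to 0.31) and within flow cell A alone (0.32, adjusted p = 0.0830), where 6 members were called in all, and that under ACEi without A23 (0.40).

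The distance covered from the Veh mean towards the WT mean, in log2 CPM under TMM, differed among members. Under Anti-miR-21 it was 65.8% ± 14.4 (SD over mice, n = 6) for Ctsd, 51.5% ± 15.4 for Ctse, 50.7% ± 18.8 for Ctsl, 45.8% ± 11.5 for Ctsc, 25.3% ± 11.6 for Ctsk and 21.7% ± 8.36 for Ctss. Under ACEi (n = 3) it was 56.1% ± 4.23 for Ctsd, 32.5% ± 5.79 for Ctsc, 27.2% ± 22.02 for Ctse, 17.95% ± 6.02 for Ctss, 17.1% ± 9.39 for Ctsk and 7.59% ± 11.5 for Ctsl. For the members with small distances the shares were 56.5% ± 23.6 and 60.5% ± 13.3 for Ctsh under Anti-miR-21 and ACEi, 34.0% ± 22.2 and 9.49% ± 22.3 for Ctsz, and 13.2% ± 24.2 and 23.7% ± 12.4 for Ctsb, so the shares did not follow the size of the distance. Ctsa, whose WT and Veh means hardly differ, was left out. These shares rest on the Veh and WT means as fixed points, so the SD covers the treated mice alone. They also depend on the scaling. With library totals Ctsh differed between Veh and WT by 0.02, not called, so it had no distance to cover. For Ctsb the log2 fold changes became 1.08 in Veh against WT and -0.40 in Anti-miR-21 against Veh.

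Some treated mice stood at the end of the range for many members. Among the 6 Anti-miR-21 mice A8 had the highest CPM for 6 of the 10 members, and among the 3 ACEi mice A11 had the lowest for 9 and A23 the highest for 6. A8 and A23 also had the highest summed macrophage markers of their groups, at 687 and 698 CPM. A23 was also the only ACEi library of flow cell A, while A11 and A13 were on flow cell B. Its place among the ACEi mice cannot be told apart from the flow cell.

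FPKM, which divides by exon length, allows members to be ranked against each other. In WT the order of mean FPKM was Ctsd (369.6), Ctsl (188), Ctsb (148), Ctsh (135), Ctsa (108), Ctsz (75.6), Ctsc (7.56), Ctss (5.02), Ctse (2.40) and Ctsk (1.88). In Veh Ctss moved from rank 8 to rank 4 (207.02 FPKM), above Ctsz (165), Ctsa (153), Ctsh (137) and Ctsc (87.9). In both treated groups it stood at rank 7, at 82.1 FPKM under Anti-miR-21 and 94.2 under ACEi. The leading members Ctsd, Ctsl and Ctsb kept ranks 1 to 3 in all 4 groups. Neighbours such as Ctsa and Ctsh in the treated groups (141 and 134 FPKM under Anti-miR-21, 153 and 143 under ACEi) were close, and Ctsa lay above Ctsh in 5 of the 6 Anti-miR-21 mice.

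The order inside a mouse does not depend on how libraries are scaled. The 6 pairs below were picked because 1 order held in all WT mice and the opposite in all Veh mice. Their WT and Veh counts were thus fixed by the choice, and only those of the treated mice were free to vary. How often pairs of other genes change order was not counted. Ctsc exceeded Ctss in 5 of 5 WT mice, but in 0 of 6 Veh, 0 of 6 Anti-miR-21 and 0 of 3 ACEi mice. Ctsh exceeded Ctsz in 5 of 5 WT mice, 0 of 6 Veh, 6 of 6 Anti-miR-21 and 3 of 3 ACEi mice, and the same counts held for Ctsh over Ctss and for Ctsa over Ctss. Ctss exceeded Ctsz in 0 of 5 WT, 6 of 6 Veh, 0 of 6 Anti-miR-21 and 0 of 3 ACEi mice, and Ctsa exceeded Ctsh in 0 of 5 WT, 6 of 6 Veh, 5 of 6 Anti-miR-21 and 3 of 3 ACEi mice. Of these 6 changes of order, that of Ctsc and Ctss remained in every treated mouse and that of Ctsa and Ctsh in all but 1, while the other 4 were back in the WT order in every treated mouse. These orders use the deposited FPKM, whose entries of Ctsa and Ctsz are marked as confounded with another gene. The change of Ctsa and Ctsh was small, with a mean log2 ratio of -0.33 in WT and 0.16 in Veh.

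As shares of the summed FPKM of the 10 members, Ctss went from 0.480% ± 0.180 (SD, n = 5) in WT to 7.86% ± 0.753 (n = 6) in Veh, and was 5.06% ± 1.18 under Anti-miR-21 (n = 6) and 5.24% ± 0.901 under ACEi (n = 3). The share of Ctsh went the other way, from 12.96% ± 0.665 in WT to 5.23% ± 0.772 in Veh, 8.57% ± 1.17 under Anti-miR-21 and 7.99% ± 0.124 under ACEi. Ctsa made up 10.3% ± 0.482 in WT, 5.82% ± 0.544 in Veh, 8.93% ± 0.746 under Anti-miR-21 and 8.53% ± 0.494 under ACEi. So relative to the other cathepsins Ctsh and Ctsa were lower in every Veh mouse than in any WT mouse, whichever scaling is taken. The sum itself, which follows the authors' scaling by library totals, was 1040.0 ± 23.3 FPKM in WT, 2649.5 ± 306 in Veh, 1589 ± 207.7 under Anti-miR-21 and 1791 ± 58.0 under ACEi.

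**Figure D4:**
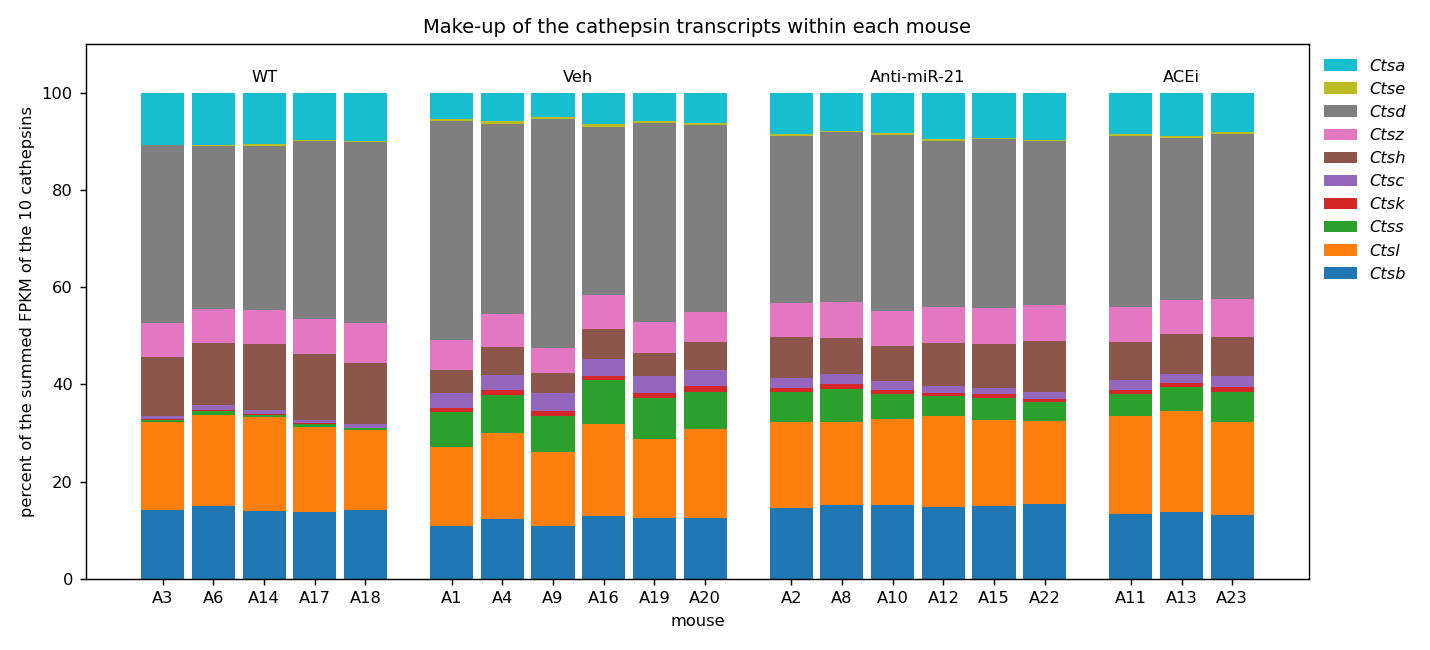
Percent of the summed FPKM of the 10 cathepsins taken by each member (y axis, stacked to 100) in each mouse (x axis), by group. The Ctss band is at most 0.715% in WT mice and at least 7.10% in Veh mice, and the Ctsd band is the largest in every mouse.

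Macrophage markers moved with some of the cathepsins, in that the 4 group means of Ctss, Ctsc, Ctsk, Ctsd, Ctse, Ctsl and Ctsz had the same order, while those of Ctsb, Ctsa and Ctsh did not and Ctsh ran the other way under TMM. The summed CPM of 9 of them (Adgre1, Csf1r, Cd68, Mrc1, C1qa, C1qb, C1qc, Itgam and Cx3cr1) ran from 154 to 170.3 in WT, 1099.6 to 1379 in Veh, 437 to 687 in Anti-miR-21 and 582 to 698 in ACEi. All 9 were called higher in Veh than in WT, and all 9 lower than in Veh under each treatment, and none was at 0 throughout a group. The shares over all genes were 39% higher in Veh, and 30.5% and 19.1% lower under Anti-miR-21 and ACEi. The ratio of Ctsc to this sum was 0.144 ± 0.0233 in WT, 0.151 ± 0.0105 in Veh, 0.133 ± 0.00668 under Anti-miR-21 and 0.148 ± 0.00613 under ACEi, with WT values from 0.125 to 0.184 spanning those of every group. The WT ratios of Ctse, from 0.00492 to 0.0353, spanned those of every group as well. The ratio of Ctss to the sum was 0.0508 ± 0.0179 in WT and 0.187 ± 0.0206 in Veh, without overlap, and 0.205 ± 0.0242 and 0.197 ± 0.0251 under Anti-miR-21 and ACEi. For Ctsd the ratio was 5.48 ± 0.492 in WT and 1.40 ± 0.154 in Veh. In whole tissue, more cells of a type and more RNA per cell cannot be told apart, and the part of macrophages in these results was not tested. The summed CPM of 5 fibroblast markers moved in the same order, from 117 to 304 in WT, 2273 to 2818 in Veh, 539 to 1115 in Anti-miR-21 and 1191 to 1330.0 in ACEi, and their part was not tested either. The ratio of Ctsc to the fibroblast sum was 0.116 ± 0.0452 in WT and 0.0721 ± 0.00998 in Veh, without overlap. It was 0.0877 ± 0.00965 under Anti-miR-21 and 0.0734 ± 0.00841 under ACEi. The mean sums of 3 tubule injury markers (21.2, 709, 248.98 and 322 CPM in WT, Veh, Anti-miR-21 and ACEi), of 5 T cell markers (1.03, 13.7, 7.32 and 11.05 CPM) and of 5 B and plasma cell markers (12.7, 47.2, 16.4 and 34.5 CPM) had the same order, and their part was not tested.

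**Figure D5:**
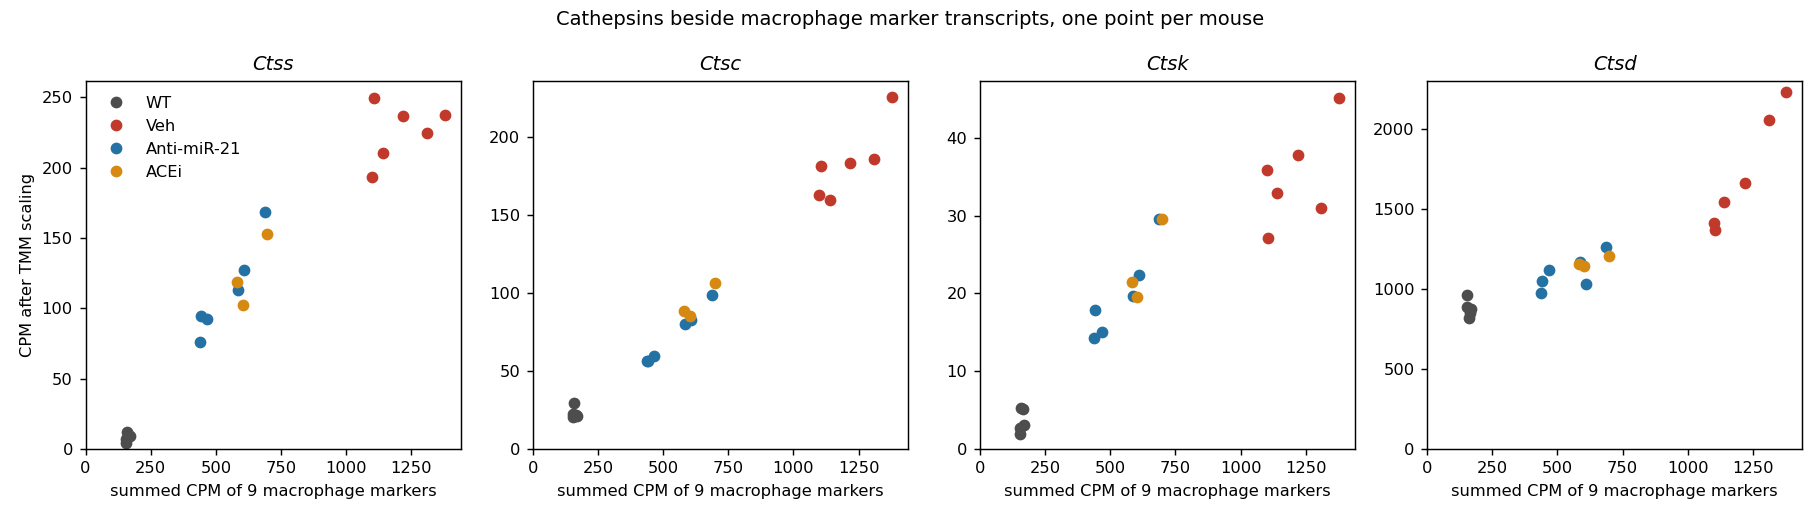
CPM of Ctss, Ctsc, Ctsk and Ctsd (y axes, from 0) against the summed CPM of 9 macrophage markers (x axis), one point per mouse, coloured by group. Veh mice lie at 1099.6 to 1379 CPM of markers and WT mice at 154 to 170.3, and the 20 points share the same scaling factor on both axes.

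The genes whose pattern over the 20 mice was closest to each member were found by the root mean square difference of log2 CPM, each gene centred on its own mean, among 12570 protein-coding genes. For Ctss these were Cd84 (0.25), Clec4a3 (0.26) and C3ar1 (0.28), and for Ctsk Lilra5 and Nckap1l (both 0.22) and C1qtnf5 (0.23). For Ctsc they were Cdh3 (0.16), Golm1 (0.17) and Rcn1 (0.18), and for Ctsd Fam89b (0.10), Npm1 and Ssh3 (both 0.11). Among the members themselves Ctsb and Ctsz were the closest pair (0.10). The nearest member to Ctss was Ctsk, at 0.63.

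The proteins that restrain or serve cathepsins were read from lists. Of 11 listed inhibitors 6 were tested, and all 6 were higher in Veh than in WT, beside 39% of all genes. They were led by Serpina3g (log2 fold change 4.22 ± 0.24), Cst7 (3.14 ± 0.65), a cystatin of immune cells, and Ctla2b (2.45 ± 0.29). Cystatin C (Cst3) and cystatin B (Cstb) were among the others. Against Veh, 5 of the 6 were lower under Anti-miR-21 and 2 of the 6 under ACEi, beside 30.5% and 19.1% of all genes. These became 6 and 4 with library totals, and 5 and 3 with upper quartile scaling. Of 13 other cathepsin genes 3 were tested in Veh against WT, where Ctsw, a protease of cytotoxic lymphocytes, was higher (2.71), Ctsf lower (-0.52) and Ctso not called, which with library totals became 2 higher, 0 lower and 1 not called.

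Genes for the sorting and partners of cathepsins split in Veh against WT, where 39% of all genes were called higher and 34% lower. Of 11 tested 4 were higher, with Scarb2 (1.07), Sort1 (0.63) and Nagpa (0.46) rising most, and 5 lower, with Glb1 (-1.57), Neu1 (-1.54) and Igf2r, a mannose 6-phosphate receptor (-0.88), falling most. Glb1 and Neu1, the partners of Ctsa, were higher than in Veh under Anti-miR-21 (1.04 and 1.17) and under ACEi (0.98 and 1.08). Legumain (Lgmn), which cuts several cathepsin precursors, was not called in Veh against WT (-0.05). With library totals the split of this list was 6 higher and 4 lower, where 81.2% of all genes called were higher.

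Other lysosomal genes were more often lower than higher in Veh under TMM, where 39% of all genes tested were called higher and 34% lower. Of 24 other lysosomal hydrolases 4 were higher in Veh than in WT, among them Hexa (1.73), Arsa (1.06) and Idua (0.53), and 11 lower, among them Galns (-1.70), Arsb (-1.68) and Galc (-1.45), though library totals gave 14 higher and 6 lower. Of 12 genes for the lysosomal membrane and its acidification 3 were higher, Npc2 (0.80), Npc1 (0.42) and Atp6v0a1 (0.13), and 9 lower, led by Atp6v1a (-1.53), Atp6v1h (-0.92) and Lamp2 (-0.74), against 7 higher and 3 lower with library totals. The median log2 fold change was -0.13 for the hydrolases and -0.43 for the membrane genes, beside 0.07 over the 17622 tested. Under Anti-miR-21 11 of the hydrolases were higher and 5 lower than in Veh, and under ACEi 11 were higher and 4 lower, which with library totals became 5 and 12, and 8 and 7.

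The transcription factors Tfeb, Tfe3 and Mitf, which act on lysosomal genes through the CLEAR motif, stood above WT in Veh (0.21, 0.67 and 0.58) and were called lower than in Veh under both treatments, also with library totals, upper quartile and RLE scaling. Over all genes tested under TMM 39% were called higher in Veh, and 30.5% and 19.1% lower under Anti-miR-21 and ACEi. Promoter windows from 250 bases before to 50 after the start were at hand for 7 of the 10 members, in RefSeq sequences of GRCm38.p6, and not for Ctsb, Ctse and Ctsh. The CLEAR core TCACGTGA, which reads the same on both strands, occurred in 0.974% of 32851 promoter windows. Among the members it lay at position -99 of Ctsd and, at 1 of the 2 listed starts of Ctsa, at positions -13 and 5, counted from the start. The ETS-type motif GAGGAAGT (either strand, 3.20% of windows) lay at -2 in Ctss and at -151 in Ctsc, and the interferon-stimulated response element (either strand, 3.44% of windows) at -21 in Ctss. The stretches of Ctsd, Ctsa and Ctss are shown because they carry these motifs and because the 3 genes differed in Veh under TMM. There Ctsa was not called and Ctss rose most. Each runs from 120 bases before to 12 after the start, on the strand of the gene, with motif matches in capitals.
Ctsd, chr7:142387816-142387947, minus strand: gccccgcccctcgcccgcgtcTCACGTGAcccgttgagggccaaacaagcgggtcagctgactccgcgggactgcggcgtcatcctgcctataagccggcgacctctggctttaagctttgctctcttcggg
Ctsa, chr2:164833653-164833784, plus strand: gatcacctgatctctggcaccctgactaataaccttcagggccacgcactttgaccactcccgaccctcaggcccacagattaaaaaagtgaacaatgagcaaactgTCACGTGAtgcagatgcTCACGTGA
Ctss, chr3:95526666-95526797, plus strand: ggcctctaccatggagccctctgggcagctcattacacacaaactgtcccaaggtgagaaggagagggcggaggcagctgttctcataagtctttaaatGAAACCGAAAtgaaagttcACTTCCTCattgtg
The CLEAR core stood in both Ctsd, which rose in Veh by 0.96 under TMM, and Ctsa, which did not pass the test at -0.07. With library totals both were called higher in Veh than in WT, Ctsd at 1.56 and Ctsa at 0.51. A match describes the letters alone, and binding was not measured.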

How the data were processed

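Kidney RNA of 20 mice was sequenced by the authors as paired 100-base reads and aligned to GRCm38 with the OmicSoft aligner. The authors deposited estimated counts per Ensembl gene, of which 29.1% of the positive values were not whole, and these were rounded before testing. They also deposited FPKM values, fragments scaled by exon length and library total, on gene models of another annotation, with 3 columns of libraries without labels that were not used here. Gene names, coordinates and exon overlaps came from GENCODE M21 on GRCm38. The labels of the RNA extraction name adipose tissue, while every sample is labelled kidney.

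Counts were analysed in edgeR 4.0.16 under R 4.3.3. Genes were kept by filterByExpr (minimum count 10, total 15), scaled with TMM and fitted with 1 coefficient per group over all 20 mice. Quasi-likelihood tests gave p-values, adjusted by Benjamini-Hochberg over 17622 genes, with a threshold of 0.05. Alternatives were DESeq2 1.42.0, limma 3.58.1 on log2(FPKM + 1) and log2(FPKM + 0.1), other scalings and filters, flow cell as a term, flow cell A alone (13 libraries on A, 7 on B), and each mouse left out. The count test was tested on simulated data in which 200 genes were changed 2-fold. It recovered 76% of them in Veh against WT, 73.5% in Anti-miR-21 against Veh, 63% in ACEi against Veh and 72.5% in Anti-miR-21 against ACEi. The shares of false calls were 1.94%, 5.77%, 3.82% and 9.38% in that order. The simulation left all other genes unchanged, while 73% of genes were called in Veh against WT in the data. The labels do not say how mice were housed or bred together, so p-values measure the spread between these mice. Intervals are 95% and come from the fit. Depth was even between libraries, and each member had between 17 and 79575 counts in a library. Named genes were the 10 members, up to 3 genes rising and 3 falling most among those called in Veh vs WT in each list, and up to 3 genes most alike each member. Genes of these lists beyond that rule were named after their values were seen. The members and the lists were chosen with earlier results of these data known.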

Additional observations from a re-analysis of the deposited data

Results flagged for a closer look

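One value stood far from its group by Dixon's test. In the WT mouse A6, Ctsc was at 29.2 CPM, while the other 4 WT mice lay between 20.5 and 22.6 CPM, and its gap to the nearest of them was 0.766 of the range of the group. The test was run on 30 groups of 5 or 6 mice (10 cathepsins in WT, Veh and Anti-miR-21), and chance flags about 1 in 20 groups. The same mouse also had the highest Ctss (11.9 CPM) and Ctsk (5.21 CPM) of the WT group. The Ctsc difference between Veh and WT kept its direction and its call without this mouse.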

How the results depend on the processing

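Of the results recomputed under each alternative, 1126 kept their direction and their side of the threshold, 33 passed it only under the alternative, 41 no longer passed it and 30 changed sign. The number of cathepsins called was 9 in Veh against WT under all 22 alternatives. In ACEi against Veh it was 5, and 8 with the linear model on either FPKM scale, where Ctsb, Ctse, Ctsk, Ctsl and Ctsz were added and Ctsa and Ctsh lost. That number fell to 4 without the ACEi mouse A11 and to 4 without A13. With upper quartile scaling it was 6, as with only the groups compared in the fit, and with library totals 7. In Anti-miR-21 against ACEi it was 0, and 1 with DESeq2.

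The signs that changed were mostly those of Ctsa and Ctsh. With log2(FPKM + 1), log2(FPKM + 0.1) and library totals in turn, Ctsa in Veh against WT was 0.51, 0.51 and 0.51 (and 0.038 with upper quartile), Ctsh 0.020, 0.020 and 0.016, Ctsa in Anti-miR-21 against Veh -0.12, -0.12 and -0.12, and Ctsh -0.025, -0.025 and -0.022. In the same order, Ctsa in ACEi against Veh was -0.0025, -0.0025 and -0.00028, Ctsh in ACEi against WT 0.087, 0.088 and 0.086, and Ctsb in Anti-miR-21 against ACEi -0.018, -0.018 and -0.0076. The FPKM values are scaled by library totals, as that alternative is, and both leave in the shift of all genes that TMM takes out. With each mouse left out in turn, values near 0 changed sign for Ctsz in ACEi against Veh (-0.11 to 0.0053) and, in Anti-miR-21 against ACEi, for Ctsa (-0.087 to 0.0012), Ctsh (-0.059 to 0.018) and Ctss (-0.31 to 0.024). No paired analysis was possible because the mice of different groups share no replicate number. Depth limits Ctse most, with as few as 17 counts in a library, and ACEi has 3 mice.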
